A study of Mus musculus with 6 samples.

Results

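The circRNA array used for the WT and db/db hearts also carried probes for linear transcripts, most of them listed by the array design under a RefSeq mRNA identifier. There were 50 such probes with 10 spots each, and 2 of them, those for the mRNAs of Acaa2 and Apoe, were left out here. The remaining 48 linear probes are described among 1847 circRNA and linear probes in all. Of the 48, 42 could be given a gene symbol through RefSeq, and the other 6 are named by their probe identifiers.

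Heart RNA from 3 WT and 3 db/db mice was digested with RNase R, labelled with Cy3 and hybridised with 1 array per heart. The sample labels describe the WT mice as healthy C57BL/6J controls and the db/db mice as a model for type 2 diabetes with high plasma glucose, all of them male and aged 3 months. The methods of the study describe C57BL/KsJ mice of both genders, so strain and sex differ between these sources. If the WT mice were C57BL/6J and the db/db mice C57BL/KsJ, strain and diabetes cannot be told apart in any comparison below. The 6 arrays lay on 1 slide, where the WT arrays and db/db 3 shared a row and db/db 1 and db/db 2 lay in the other row. P-values set the difference between groups against the spread between arrays within a group. With 1 array per heart, that spread holds differences between hearts and between arrays together.

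RNase R is an exonuclease that degrades linear RNA from its free 3′ end, while circRNAs have no free end and are resistant to it. A probe for a linear transcript on such an array reads RNA that the digestion is meant to remove, and it can also bind a circRNA that holds the same exon. The db/db mouse lacks a working leptin receptor, becomes obese and diabetic, and its heart is known to shift toward fatty acid use. No array of undigested RNA was analysed here, so the share of any transcript that survived the digestion was not measured, and linear and circular RNA from the same exon cannot be told apart. The question was which linear transcripts still gave signal in these hearts and whether that signal differed between WT and db/db.

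A probe was counted as well above background on an array when the scanner software marked at least 50% of its unflagged spots so. By that measure 17 of the 48 linear probes (35.4%) were well above background on all 6 arrays, 12 on some arrays and 19 on none. The same held for 568 of 1797 circRNA probes (31.6%). The negative control probes gave 1 of 40 (2.5%), and the probes for external RNA controls (ERCC) gave 2 of 18 (11.1%).

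The number of linear probes well above background was 21, 27 and 18 on WT 1, 2 and 3, and 27, 29 and 22 on db/db 1, 2 and 3. The group means were 22 ± 4.58 in WT and 26 ± 3.61 in db/db (SD, n = 3), and the groups overlapped. For circRNA probes the same count was 618, 731 and 602 in WT and 856, 865 and 676 in db/db. The lowest normalised log2 signal that counted as well above background was 4.60, 4.03 and 4.47 in WT, against 3.54, 3.64 and 4.35 in db/db. WT 2, db/db 1 and db/db 2 had the lowest of these limits and also the largest numbers of linear probes above background. The part of this limit in the counts was not tested.

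**Figure D1:**
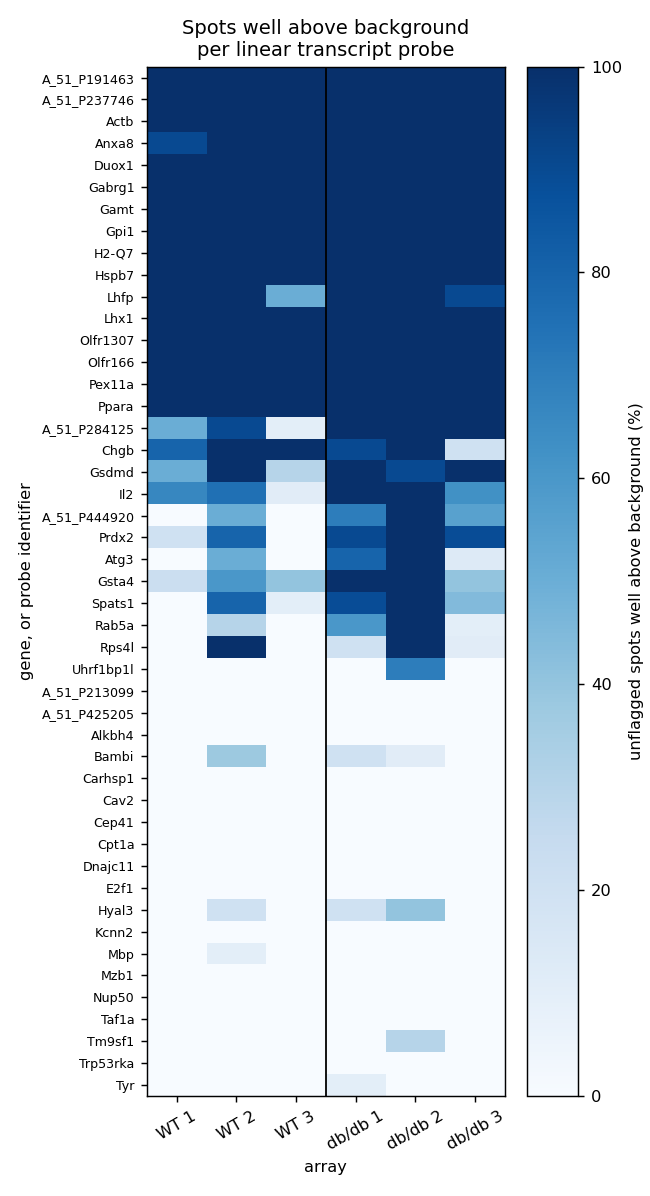
Share of unflagged spots that were well above background (%, colour scale) for 47 of the 48 linear probes (rows) on the 3 WT and 3 db/db arrays (columns). The upper 16 rows were at or above 50% on all 6 arrays, the next 12 on some arrays, and the lower 19 on none.

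The genes detected on all 6 arrays covered several roles. Hspb7 encodes a small heat shock protein of heart muscle, Actb encodes cytoplasmic beta-actin, and Lhfp encodes a membrane protein of the tetraspan type. Metabolic genes were Gpi1 (glucose-6-phosphate isomerase of glycolysis), Ppara (nuclear receptor that drives fatty acid oxidation genes), Pex11a (peroxisome division), Gamt (creatine synthesis) and Duox1 (hydrogen peroxide production). Genes known mainly from the nervous system or its development were Lhx1, a transcription factor, and Gabrg1, a GABA receptor subunit. Others were H2-Q7 (a class I histocompatibility molecule), Anxa8 (a calcium-dependent phospholipid-binding protein), the olfactory receptors Olfr166 and Olfr1307, and the unnamed probes A_51_P191463 and A_51_P237746. H2-Q7 has near-identical relatives in the mouse genome, and the files hold no probe sequences, so the assignment of its probe to 1 gene is uncertain. A negative control probe was also detected on all 6 arrays, with mean normalised log2 signals of 5.22 in WT and 4.69 in db/db. Duox1 (5.25 and 5.49), Anxa8 (5.37 and 5.65), Ppara (5.41 and 4.94) and Lhfp (5.72 and 4.70) lay near that level in WT, db/db or both. Detection of such dim probes therefore does not by itself show the transcript.

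The 12 probes detected on some arrays differed in how many. Chgb, the secretory granule protein chromogranin B, was well above background on 5 arrays, as were Gsdmd, Il2 and A_51_P284125. Prdx2 and A_51_P444920 were so on 4 arrays, and Atg3, Gsta4 and Spats1 on 3. Rps4l, which the annotation lists as a transcribed pseudogene, was detected on WT 2 and db/db 2. Rab5a was detected on db/db 1 and db/db 2 and on none of the WT arrays, with normalised log2 signals of 3.88, 4.13 and 3.84 in WT and 3.83, 4.18 and 3.99 in db/db. Its detection in db/db alone therefore came with overlapping signals. On the WT arrays and db/db 3 it was not well above background, so the arrays cannot be ranked by these values. Uhrf1bp1l was detected on db/db 2 alone.

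The 19 probes that were well above background on none of the arrays included Cpt1a, the liver form of carnitine palmitoyltransferase, and Cav2, a caveolin. They included Mbp of myelin, Tyr of pigment synthesis, the potassium channel Kcnn2 and the immunoglobulin chaperone Mzb1. Bambi (a decoy receptor of TGF-beta signalling), E2f1 (cell cycle transcription), Nup50 (nuclear pore) and Taf1a (ribosomal RNA transcription) were also among them. The others were Alkbh4, Carhsp1, Cep41, Dnajc11, Hyal3, Tm9sf1, Trp53rka, A_51_P213099 and A_51_P425205. For these probes no level can be given on any array.

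The comparison of WT with db/db ran over all circRNA and linear probes that were well above background on at least 3 arrays. This left 770 probes, of which 26 were among the 48 linear ones, and 22 linear probes were not tested. Each of the 26 tested linear probes was detected in both groups, but arrays of 1 group alone could meet the filter. Among probes not detected on all 6 arrays, db/db alone met it for A_51_P284125, Gsdmd, Il2, A_51_P444920 and Prdx2, and WT alone for Chgb. A_51_P444920 and Prdx2 were each detected on 1 WT array. Atg3, Gsta4 and Spats1 needed arrays of both groups. In bulk heart RNA, fewer cells of a type and less RNA per cell cannot be told apart.

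Using the thresholds of the study (P under 0.05 and at least 1.5-fold), 3 of the 26 linear probes (11.5%) were called, beside 19.1% of all 770 probes. The 3 were Chgb, Hspb7 and Lhfp, all lower in db/db, while over all probes 74 were higher and 73 lower. With the methods' t-test in place of limma, Chgb alone was called, and Hspb7 and Lhfp were not. Past an adjusted p of 0.05 (limma, Benjamini-Hochberg over the 770 probes) there were 4 linear probes (15.4%), beside 28.7% of all probes. Gpi1 and Lhx1 were higher in db/db, and Chgb and Actb were lower. With the slide row as a block, 0 linear probes were past an adjusted p of 0.05 (limma), beside 1.82% of all probes. The groups did not overlap with db/db higher for 4 linear probes (15.4%), beside 23.4% of all probes, and with db/db lower for 3 (11.5%), beside 22.5%. Each of these shares among the linear probes lay below that over all probes, a difference that was not tested.

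The log2 fold changes of the 26 probes ran from -1.02 to 0.50, and 15 were above 0. Their median was 0.063, beside 0.015 over all probes tested. Without db/db 1 the median of the linear probes was 0.18, and without db/db 2 it was -0.055. Each of these was taken over the 23 linear probes that then passed the filter. With dim arrays set to the lowest detected signal, an alternative chosen after seeing the data, the median of the 26 was -0.026.

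Chgb had a normalised log2 signal of 4.92, 4.74 and 5.16 on WT 1, 2 and 3, and of 4.01, 4.20 and 4.14 on db/db 1, 2 and 3. All db/db arrays lay below all WT arrays. The difference on the log2 scale was -0.82 ± 0.13 (SE), with an adjusted p of 0.00593 (limma, Benjamini-Hochberg). On db/db 3 the probe was near background, with 2 of its 10 spots well above it. Without db/db 3 the difference was -0.82 with an adjusted p of 0.0297, and with that array set to its lowest detected signal it was -0.75 with an adjusted p of 0.0116 (limma). Across the alternative settings the adjusted p lay between 0.00484 and 0.0927, and it was under 0.05 in 19 of 20. A block for slide row compares db/db 3 with the WT arrays, because the other row held db/db arrays alone, and with it the adjusted p was 0.0927 (limma). No size is given for that comparison, since the probe was not well above background on db/db 3. Normexp background correction gave -0.21 with offset 50 and -0.34 with offset 16, short of 1.5-fold.

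Hspb7 gave 9.19, 9.09 and 9.19 in WT and 8.95, 7.85 and 8.49 in db/db on the normalised log2 scale. The WT values lay close together, and the db/db values were all lower and spread widely, with db/db 2 the lowest. The mean fell from 9.15 ± 0.05 in WT to 8.43 ± 0.55 in db/db (SD, n = 3). This log2 fold change of -0.72 ± 0.26 (SE) passed the unadjusted threshold but not adjustment, with an adjusted p of 0.0733 (limma, Benjamini-Hochberg), between 0.0216 and 0.344 across the alternative settings. It was past adjusted p 0.05 under 3 of the other scalings, with adjusted p of 0.0365 (median of probes detected on all 6 arrays), 0.0446 (75th percentile of all probes) and 0.0372 (median of circRNA probes) in limma. Without db/db 2 the log2 fold change was -0.42, below 1.5-fold, and without db/db 1 it was -0.97 with an adjusted p of 0.0216 (limma). The unadjusted threshold was missed without WT 1, WT 2, WT 3 or db/db 3, where the adjusted p was 0.174, 0.149, 0.185 and 0.154 (limma). The row block gave -0.66 with an adjusted p of 0.344 (limma). Hspb7 was the single member of the cardiac muscle list among the 48 probes, so the heart origin of the RNA could not be checked on further muscle markers.

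Lhfp gave 5.84, 6.64 and 4.70 in WT and 4.60, 4.72 and 4.78 in db/db. The db/db arrays were close to one another, whereas WT 3 lay among them and WT 1 and WT 2 lay above. On WT 3, 5 of its 10 spots were well above background, exactly at the 50% limit. Its log2 fold change of -1.02 ± 0.43 (SE) passed the unadjusted threshold but not adjustment, with an adjusted p of 0.119 (limma, Benjamini-Hochberg), between 0.0233 and 0.423 across the alternative settings. Without WT 3 it was -1.54 with an adjusted p of 0.0233, and without WT 2 it was -0.56 with an adjusted p of 0.285 (limma). The unadjusted threshold was also missed without WT 1, db/db 1, db/db 2 or db/db 3, with adjusted p of 0.258, 0.223, 0.174 and 0.231 (limma). The row block gave -0.94 with an adjusted p of 0.423 (limma). Normexp correction gave -0.40 with offset 50 and -0.56 with offset 16, and the probe was then not called.

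Actb gave 5.66, 5.49 and 5.76 in WT and 5.39, 5.14 and 5.09 in db/db. The groups did not overlap, although WT 2 and db/db 1 lay close to each other. Their difference of -0.43 ± 0.13 (log2 fold change, SE) had an adjusted p of 0.0441 (limma, Benjamini-Hochberg), short of 1.5-fold. Across the alternative settings the adjusted p ran from 0.0182 to 0.175, and 12 of 21 were above 0.05. Among these were the fits without WT 1 (0.16), WT 2 (0.0615), WT 3 (0.175), db/db 2 (0.0653) and db/db 3 (0.136), each an adjusted p from limma. Both normexp settings (-0.14 and -0.20) gave a smaller difference, and the row block gave -0.55 with an adjusted p of 0.143 (limma).

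Gpi1 was higher in db/db, with 5.78, 5.79 and 5.89 in WT and 6.31, 6.20 and 6.27 in db/db. Both groups were tight, and every db/db array lay above every WT array. Its log2 fold change was 0.44 ± 0.10 (SE) with an adjusted p of 0.0151 (limma, Benjamini-Hochberg), below 1.5-fold. The adjusted p ran from 0.00928 to 0.139 across the alternative settings and was under 0.05 in 15 of 21. Without WT 1, WT 2, WT 3 or db/db 3 the adjusted p was 0.0961, 0.0527, 0.0506 and 0.0604 (limma). It was 0.0646 when arrays were scaled to the 75th percentile of probes detected on all 6 arrays, and 0.139 with the row block, where the log2 fold change was 0.45 (limma). Normexp correction gave a smaller log2 fold change, 0.24 with offset 50 and 0.33 with offset 16.

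Lhx1 gave 5.72, 5.87 and 5.73 in WT and 6.04, 6.56 and 6.20 in db/db. All db/db arrays were higher, db/db 2 the most. This log2 fold change of 0.50 ± 0.15 (SE) had an adjusted p of 0.0465 (limma, Benjamini-Hochberg), below 1.5-fold. The adjusted p ran from 0.0238 to 0.302 across the alternative settings and was under 0.05 in 12 of 21. Without WT 1, WT 2, WT 3 or db/db 3 it was 0.158, 0.0956, 0.141 and 0.108 (limma). Without db/db 1 the log2 fold change was 0.60, past 1.5-fold. The row block gave 0.43 with an adjusted p of 0.302 (limma), and normexp correction with offset 50 gave 0.24 with an adjusted p of 0.056 (limma).

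**Figure D2:**
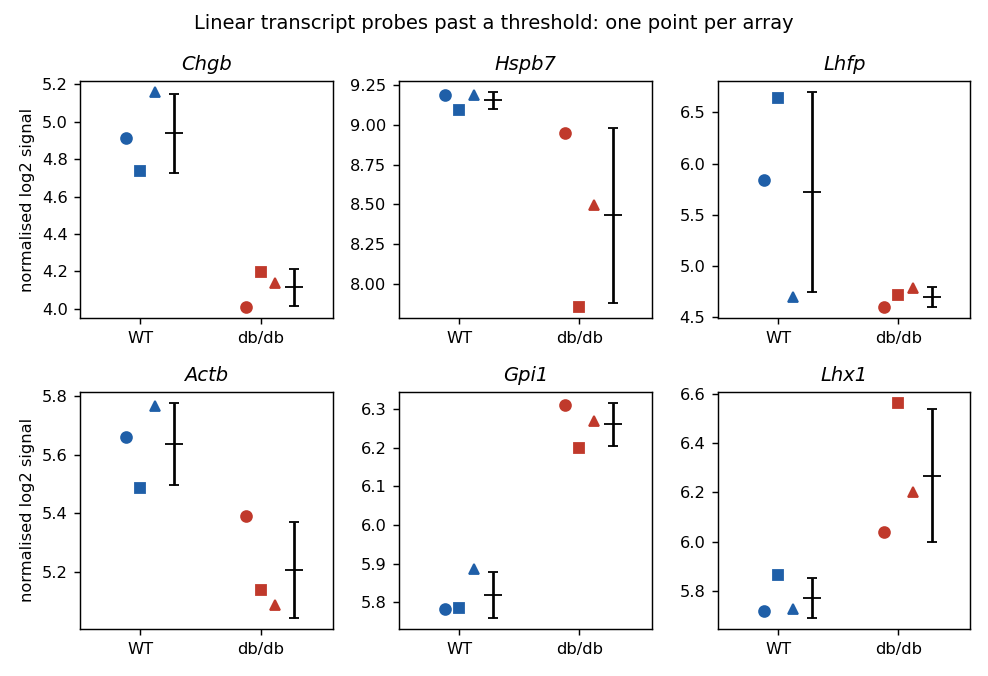
Normalised log2 signal of Chgb, Hspb7, Lhfp, Actb, Gpi1 and Lhx1 on each array (points; circle, square and triangle for arrays 1, 2 and 3; blue WT, red db/db), with the mean and SD of each group in black (n = 3). Chgb and Gpi1 show well separated groups, the db/db arrays spread widely for Hspb7, and for Lhfp the WT 3 array lies at the level of the db/db arrays.

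The energy metabolism list had 1 member among the 48 probes, Ppara. Its normalised log2 signal was 5.46, 5.46 and 5.32 in WT and 4.58, 5.37 and 4.86 in db/db. The db/db 2 array lay among the WT arrays, and the other db/db arrays lay below them. Its log2 fold change of -0.47 ± 0.20 (SE) was below 1.5-fold, with an adjusted p of 0.117 (limma, Benjamini-Hochberg) and a range between 0.00782 and 0.316 across the alternative settings. Without db/db 2 it was -0.69 with an adjusted p of 0.00782, and without db/db 1 it was -0.30 with an adjusted p of 0.211 (limma). Normexp correction gave a smaller log2 fold change, -0.17 with offset 50 and -0.25 with offset 16.

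Of the further metabolic genes, Pex11a had means of 7.63 ± 0.04 in WT and 7.87 ± 0.27 in db/db (SD, n = 3). Its db/db arrays, at 7.69, 8.17 and 7.73, all lay above the WT arrays, which ran from 7.58 to 7.66. The log2 fold change of 0.24 did not pass the test, with an adjusted p of 0.281 (limma, Benjamini-Hochberg). It was 0.07 without db/db 2 and 0.10 with the row block. Gamt had means of 7.06 in WT and 7.05 in db/db, with a log2 fold change of -0.01, and Duox1 had 5.25 and 5.49, with 0.24 and an adjusted p of 0.30 (limma). Duox1 was at 0.09 without db/db 2 and at 0.38 without db/db 1, and Gamt at -0.12 and 0.16. The antioxidant gene Prdx2 (0.13) and the glutathione transferase gene Gsta4 (0.08) were near background on some arrays and did not pass the test, and the sign of each turned in at least 1 alternative setting.

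The nervous and neuroendocrine list had 2 members, Chgb, which was lower in db/db, and Mbp, which was not detected. Outside that list, Gabrg1 gave 6.03, 6.24 and 5.69 in WT and 5.40, 7.08 and 6.47 in db/db. Its lowest and highest values were both in db/db, 3.20-fold apart, and the log2 fold change of 0.33 ± 0.40 (SE) had an adjusted p of 0.587 (limma, Benjamini-Hochberg). Without db/db 1 it was 0.79 with an adjusted p of 0.0579 (limma), which passed the unadjusted threshold and 1.5-fold, and without db/db 2 it was -0.06.

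The immune list had 1 member, Gsdmd, the pore-forming protein of pyroptosis. Its normalised log2 signal was 4.65, 4.76 and 4.58 in WT and 4.27, 4.28 and 4.73 in db/db. On WT 1 and WT 3, 5 and 3 of its spots were well above background. The log2 fold change of -0.23 ± 0.15 (SE) did not pass the test, with an adjusted p of 0.293 (limma, Benjamini-Hochberg). Without db/db 3 it was -0.38, and with the slide row as a block, which sets db/db 3 against WT, the sign turned to 0.07. The cytokine gene Il2 had means of 4.60 and 4.52, with a log2 fold change of -0.07.

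H2-Q7 gave 9.09, 9.03 and 9.06 in WT and 8.40, 9.71 and 8.98 in db/db. The WT hearts were nearly equal, while the db/db arrays spanned 2.49-fold, with db/db 1 and db/db 3 below and db/db 2 above all WT arrays. The median SD over its 10 spots on an array was 0.048, which holds no difference between arrays. The group means of 9.06 and 9.03 differed by -0.03 ± 0.30 (SE) with an adjusted p of 0.956 (limma, Benjamini-Hochberg). Without db/db 1 the difference was 0.31, and without db/db 2 it was -0.36.

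The olfactory receptor probes belong to a large gene family and are known chiefly from the nose. Olfr166 gave 6.57, 6.73 and 6.71 in WT and 6.88, 6.87 and 6.94 in db/db, all higher in db/db. The log2 fold change of 0.22 ± 0.10 (SE) missed the threshold, with an adjusted p of 0.13 (limma, Benjamini-Hochberg). Olfr1307 gave 7.38, 7.59 and 7.02 in WT and 6.73, 7.70 and 7.29 in db/db, with overlapping groups and a log2 fold change of -0.10. Without db/db 1 it was 0.16, without WT 2 it was 0.04, and without db/db 2 it was -0.32.

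Anxa8 had means of 5.37 ± 0.02 in WT and 5.65 ± 0.33 in db/db (SD, n = 3), with an adjusted p of 0.253 (limma) across a range of 0.0309 to 0.513. Its log2 fold change was 0.28, beside 0.45 without db/db 1 (adjusted p 0.0309) and 0.13 without db/db 2 (adjusted p 0.481, limma). The unnamed probes A_51_P191463 and A_51_P237746 had log2 fold changes of 0.13 and -0.02. The dimmer probes Atg3, A_51_P284125, A_51_P444920 and Spats1, near background on some arrays, had 0.21, 0.11, 0.09 and 0.04. With dim arrays set to the lowest detected signal, chosen after seeing the data, they had -0.03, 0.11, -0.07 and -0.09. Signs turned in at least 1 alternative setting for A_51_P237746, Atg3, A_51_P284125, A_51_P444920 and Spats1. None of these passed the test on all 6 arrays.

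**Figure D3:**
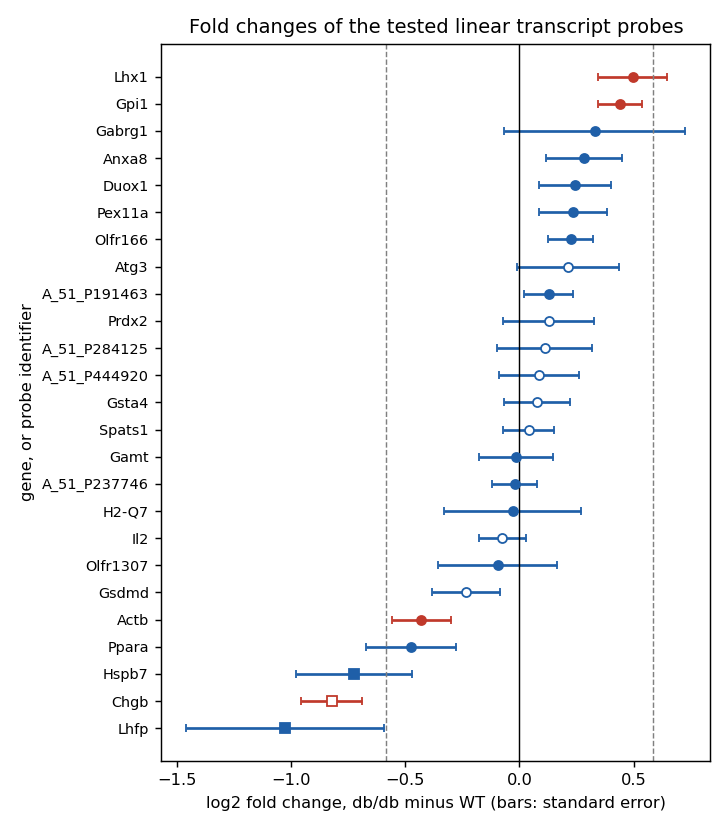
Log2 fold change (db/db minus WT) of 25 of the 26 tested linear probes with its SE (bars). Red marks an adjusted p under 0.05, squares mark P under 0.05 with at least 1.5-fold, filled symbols were well above background on all 6 arrays, and dashed lines mark 1.5-fold. Lhfp is lowest at -1.02 with the widest bar, and Lhx1 is highest at 0.50.

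The db/db arrays varied more than the WT arrays for most linear probes. The WT arrays shared a slide row while the db/db arrays lay in both rows, so the db/db SD also holds any difference between rows. Over the 17 probes detected on all 6 arrays, the median SD between arrays was 0.081 in WT and 0.27 in db/db on the normalised log2 scale. The db/db SD was the larger for 13 of the 17 (76.5%), beside 495 of 568 circRNA probes (87.1%). Among the db/db arrays, db/db 2 was highest for 10 of the 17 (58.8%), beside 40.0% of circRNA probes. The lowest was db/db 1 for 12 (70.6%), beside 44.0% of circRNA probes. For circRNA probes db/db 1 was also the highest in 41.7%, beside 23.5% of the linear ones. The arrays db/db 1 and db/db 2 shared a row, so a distance between them, as for H2-Q7 and Gabrg1, lay within that row. The median SD over the spots of a probe on an array was 0.096, between 0.034 and 0.312.

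H2-Q7, Gabrg1, Olfr1307 and Ppara were among those with db/db 1 lowest and db/db 2 highest of the db/db arrays, and control probes had the same order. The negative control probe detected on all 6 arrays gave 5.22, 5.32 and 5.13 in WT and 3.79, 5.48 and 4.79 in db/db. The ERCC probes detected on all 6 arrays gave 5.89, 5.88 and 5.90 in WT with 4.87, 6.02 and 5.48 in db/db, and 5.96, 5.82 and 6.01 in WT with 5.61, 5.96 and 5.67 in db/db. Hspb7 had the opposite order, with db/db 1 highest and db/db 2 lowest. The db/db minus WT difference was -0.54 for the negative control probe and -0.44 and -0.18 for the ERCC probes. It was 0.12 for a further control probe detected on all 6 arrays. Actb (-0.43) and Ppara (-0.47) differed by less than the negative control probe, and Chgb (-0.82), Hspb7 (-0.72) and Lhfp (-1.02) by more. Chgb, with means of 4.94 in WT and 4.11 in db/db, lay below that control in both groups. What the control probes read on these arrays was not tested.

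Before normalisation between arrays, the signal of linear probes was set against that of circRNA probes on the same array. The median log2 signal of the 17 linear probes detected on all 6 arrays was 5.91, 6.35 and 5.81 in WT and 6.43, 7.18 and 6.55 in db/db. Over the 568 circRNA probes it had a mean of 6.32 ± 0.10 in WT and 6.61 ± 0.08 in db/db (SD, n = 3). Both medians were higher on each db/db array than on each WT array.

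Linear minus circRNA, the difference in median log2 signal was -0.43, 0.14 and -0.60 in WT and -0.15, 0.49 and -0.00031 in db/db. The group means were -0.30 ± 0.39 in WT and 0.11 ± 0.33 in db/db (SD, n = 3), so they differed by 0.41, with overlapping groups and WT 2 above 2 of the db/db arrays. No test was made of this value. With means in place of medians over probes it was 0.044, and with all probes of either kind the sign turned, to -0.091. Without WT 3 it was 0.26, without WT 2 it was 0.63, and without db/db 2 it was 0.22. The amount of linear RNA before digestion and the extent of digestion cannot be told apart on these arrays.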

How the data were processed

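Heart RNA of 3 WT and 3 db/db mice was measured on 6 single-colour circRNA arrays. The authors deposited the scanner output of Feature Extraction 11.0.1.1, whose processed signal is a background-corrected intensity for each spot, not normalised between arrays. The deposited table of processed values holds 792 probes and none of the linear ones, so it was not used. On each array 480 spots belonged to the 48 linear probes. Between 14 and 28 of these were left out as non-uniform or population outliers, and none was saturated. The mean log2 signal of each probe's spots was taken, followed by quantile normalisation over 1921 probes, which the study's methods name. A probe entered the fit if 3 or more arrays showed it well above background. The fit used limma 3.58.1 in R 4.3.3 with moderated variances, and p-values were adjusted by Benjamini-Hochberg over all 770 probes. Precision is limited by the number of hearts.

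Symbols came from RefSeq accessions of GRCm38.p6, and no coordinates are given because the array design used another build. 1 probe is not reported by name here. Every other probe is named: those past a threshold with each array's value, others by means, fold change or number of arrays. The members and gene lists were chosen with earlier results of these data known. Of 12 lists, those for cardiac muscle, energy metabolism and immune genes held 1 member each and the nervous list 2. The lists for skeletal muscle, liver and plasma proteins, extracellular matrix, endothelium, blood, fat, ribosome and cell cycle held 0, and 43 probes were in none. Alternatives were other scalings, normexp correction, other filters and spot summaries, the methods' t-test, blocks for replicate number and slide row, other thresholds and each array left out. Setting dim arrays to the lowest signal above background was added after seeing the data.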

Additional observations from a re-analysis of the deposited data

How the results depend on the processing

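The 3 calls past P 0.05 and 1.5-fold became 1 with normexp offset 50, with normexp offset 16, with only probes detected on all 6 arrays, with the slide row as a block, with the methods' t-test and with a 2-fold threshold, and 7 with no fold threshold. Leaving out single arrays gave between 1 and 4. The 4 probes past adjusted p 0.05 became 2 with scaling to the 75th percentile of probes detected on all 6 arrays, 2 with normexp offset 50 and 2 with the methods' t-test, 5 with Hspb7 added under each of the 3 other scalings, and between 1 and 6 with single arrays left out. With the slide row as a block limma gave 0, with 3 at an unadjusted P under 0.05, beside 1.82% of all probes past adjusted p 0.05. Chgb was called with each array left out. The median log2 fold change ran from -0.055 to 0.18 with single arrays left out, over the 23 or 26 linear probes that then passed the filter. It was between 0.0081 and 0.13 in the planned scaling, background, filter, spot and block settings, and -0.026 with dim arrays set to the lowest detected signal. Whether replicate numbers pair the hearts is not known. The deviations of same-numbered arrays correlated at 0.099, 0.343 and -0.054. WT 1 and WT 2 correlated best with the db/db array of the same number, and WT 3 did not. With 3 arrays a group these values cannot decide it. A replicate block was fitted all the same, and 3 probes were called and 4 were past adjusted p 0.05, Hspb7 among them in place of Actb. With no filter on dim probes, Tm9sf1 was called as higher and Tyr was past adjusted p 0.05, both on signals that were well above background on none of the arrays, while Lhfp was no longer called and Actb and Lhx1 were no longer past adjusted p 0.05. When dim arrays were set to the lowest detected signal, an alternative chosen after seeing the data, Chgb had a log2 fold change of -0.75 and Lhx1 an adjusted p of 0.0512 (limma). The count of 17 probes detected on all 6 arrays was 15 when every spot had to be above background, 22 when any spot sufficed, and 17 to 20 with single arrays left out. Linear minus circRNA signal, 0.41 between the groups, was -0.091 over all probes and ran from 0.22 to 0.63 with single arrays left out. The causes of these changes were not tested. The authors' processed values were not run, since that table holds no linear probe. Signal over background limits what can be said of the 19 undetected probes, and 3 hearts a group limit the rest.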
